A study of Mus musculus with 24 samples.

Results

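RNA levels in PMCA4 knockout cells that had been electroporated with vector DNA were compared with those in wild-type cells, across all measured genes. The knockout side was the mean of the group means of vector A (5 arrays) and vector B (4 arrays), each vector weighing the same, and the other side was the 5 wild-type arrays, so 14 of the 24 arrays of the study entered the comparison. All arrays came from primary vascular smooth muscle cells of the carotid artery of male C57bl6 mice. The wild-type cells had the genotype wild type, and their labels give no transfection. The vector cells had the genotype written PMC4 KO in the labels and received a vector control, called Vector A or Vector B. Serum and the growth factor PDGF-BB were given to the synchronized cells, which were collected late in G1 or at its border with S phase. The remaining groups, untreated knockout cells (5 arrays) and knockout cells given PMCA4b (5 arrays), share these steps, and the untreated knockout cells are used below to place the vector values.

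The labels do not say how vector A and vector B differ. No wild-type cells electroporated with vector are among the samples analysed here, so between vector and wild-type cells the lost pump and the electroporation cannot be told apart. The sources used here do not say if the replicates were separate cultures or animals. The p-values therefore cover only the spread among these samples, possibly technical. The cells were measured in bulk, where fewer cells of a type and less RNA per cell cannot be told apart.

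PMCA4, the product of Atp2b4, is a pump of the plasma membrane that uses ATP to move calcium out of the cell and is switched on by calcium-bound calmodulin. Calcium in smooth muscle drives contraction through calmodulin, and it also reaches the nucleus through calcineurin and NFAT. Smooth muscle cells of the artery wall can leave the contractile state, divide, and lay down matrix, and the step from G1 into S phase is governed by E2F factors, cyclin-dependent kinases and their inhibitors.

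An array detected from 9496 to 10406 of its 25697 probes (detection p under 0.01), and 7675 named genes could be tested. Levels are log2 intensities after background correction and quantile normalization, and the median SD within a group was 0.122. A probe undetected on a side has only an upper bound there, and its fold is then given as at least the ratio to the dimmest detected signal of those arrays. The deposited table holds the arrays in 3 sets of 8 neighbouring columns, whose meaning is not stated. The third set holds all vector A arrays and 1 wild-type array, and the other sets hold the vector B arrays and 2 wild-type arrays each.

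The probe for Atp2b4 did not tell the knockout cells from the wild type. It was 1 of 3 probes of the gene above background, and it read 6.76, 6.79, 7.13, 6.80 and 6.55 on the wild-type arrays. It read 6.69, 6.79, 6.81, 6.41 and 6.69 with vector A and 6.995, 6.80, 6.64 and 6.45 with vector B. The groups overlapped, and the log2 difference of -0.11 (SE 0.15) did not pass the test (limma adjusted p = 0.529). An exact permutation test over its 2002 regroupings, two-sided, gave p = 0.335, and 5e-04 is the smallest it can give. Within single sets of columns, which hold vector A or vector B but not both, the difference ran from -0.42 to 0.13. It was 0.06 with the set as a block. The sources used here do not place the probe relative to the deleted part, so it checks neither the deletion nor the labels.

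Atp2b1, the widely expressed sister pump, rose. It read 8.48, 8.40, 8.54, 8.39 and 8.59 in wild type, 10.22, 9.96, 10.16, 10.01 and 10.13 with vector A and 9.98, 9.97, 10.01 and 9.92 with vector B. All 9 vector arrays lay above all wild-type arrays, a 2.93-fold difference (log2 1.55, SE 0.058, adjusted p = 2.01e-17, exact permutation p = 5e-04, the smallest possible). The untreated knockout cells lay between them at 8.97 ± 0.134 (SD, n = 5). The difference of vector B from vector A, -0.13, did not pass the test (adjusted p = 0.126). Atp2b2 and Atp2b3 were undetected on all arrays.

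The difference from wild type was broad and ran in both directions. Of the 7675 genes, 5963 were called at an adjusted p under 0.05, which is 77.7%. Of all genes, 39.6% were higher and 38.0% lower with vector, and the median over all genes was 0.01 on the log2 scale. The typical absolute difference was 0.414, and 725 genes were higher and 565 lower by at least 2-fold. With so large a share called, a count within a gene group is read below against these percentages. Of the 7675 genes, 3039 were higher and 2669 lower with vector than in untreated knockout cells. Untreated knockout cells were higher than wild type in 2038 and lower in 2390. The tails were unequal: 90 genes were higher by at least 8-fold in the fit and 23 were lower.

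Most of the 15 genes picked for the largest fitted rise were undetected in wild type and bright with vector. 12 of them were undetected on every wild-type array, so their rises are lower bounds and have no order. Their arrays did not overlap, since the rule that picked them asks for that. Aldh3a1, an enzyme that oxidizes toxic aldehydes, read 6.0, 5.82, 6.33, 5.92 and 6.09 in wild type. It read 13.65, 13.69, 13.61, 13.64 and 13.51 with vector A and 13.71, 13.63, 13.70 and 13.56 with vector B. The rise was at least 150-fold (adjusted p = 9.03e-29), and vector B differed from vector A by 0.03, which did not pass the test (adjusted p = 0.768).

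Tnfrsf11b encodes osteoprotegerin, a secreted decoy receptor that binds RANKL. It read 6.25, 5.80, 5.79, 6.37 and 5.88 in wild type, 14.19, 14.22, 14.17, 14.15 and 14.26 with vector A and 12.98, 13, 13.05 and 13.01 with vector B. It rose at least 147-fold (adjusted p = 1.05e-27) and was lower with vector B than with vector A (log2 -1.19, adjusted p = 9.39e-10). Dcn, which encodes the collagen-binding proteoglycan decorin, read 5.50, 5.60, 5.82, 5.64 and 5.59 in wild type, 12.41, 12.48, 12.59, 12.60 and 12.57 with vector A and 12.92, 12.98, 13.13 and 13.03 with vector B. It rose at least 82.3-fold (adjusted p = 1.04e-29). Scara5, a scavenger receptor that takes up ferritin, went from 4.84 ± 0.184 (SD, n = 5) in wild type to 12.18 ± 0.0588 (SD, n = 5) and 12.32 ± 0.101 (SD, n = 4) with vectors A and B, at least 57.3-fold (adjusted p = 1.24e-24). In untreated knockout cells it read 6.57 ± 0.368 (SD, n = 5).

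Several of these 15 genes encode secreted factors or matrix enzymes. Igf1, insulin-like growth factor 1, was detected on 3 of 5 wild-type arrays at 6.82, 6.22, 6.70, 6.55 and 6.08, and read 12.69, 12.84, 12.76, 12.86 and 12.75 with vector A and 10.89, 10.85, 10.91 and 10.85 with vector B. It rose at least 38-fold (adjusted p = 2.69e-24), with vector B below vector A (log2 -1.91, adjusted p = 7.56e-13). Mmp3, or stromelysin 1, which digests matrix proteins, was detected throughout and read 8.05, 8.32, 7.78, 8.47 and 7.75 in wild type, 13.82, 13.83, 13.87, 13.82 and 13.88 with vector A and 13.28, 13.32, 13.20 and 13.15 with vector B, 44.2-fold higher (adjusted p = 1.04e-23). Igfbp5, which binds insulin-like growth factors, rose at least 15.2-fold, and dermatopontin (Dpt), a small matrix protein, rose at least 13.7-fold. The others were the uroplakin Upk1b (at least 29.3-fold), the surface antigen Psca (at least 40.2-fold, detected on 1 wild-type array), the annexin Anxa8 (at least 17.5-fold), the cadherin family member Cdhr1 (at least 40.1-fold), Ccdc68 (at least 17.9-fold), Pid1 (at least 17.2-fold) and Renbp (at least 18.5-fold). The highest adjusted p among the 15 was 1.04e-23. Another kept probe of Anxa8 read a rise of 3.04 on the log2 scale, and the lower probe of Dcn 5.53.

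These 15 genes were also called against untreated knockout cells, a comparison in which 74.4% of all genes were called. Knockout cells held intermediate levels for most of them, such as 9.93 ± 0.171 (SD, n = 5) for Aldh3a1 and 9.80 ± 0.0964 (SD, n = 5) for Dcn. Upk1b was different: it was undetected in untreated knockout cells at 4.77 ± 0.0186 (SD, n = 5) and in wild type at 4.79 ± 0.0827 (SD, n = 5), and read 11.87 ± 0.0779 (SD, n = 5) in vector A cells and 10.70 ± 0.198 (SD, n = 4) in vector B cells. Igfbp5 was likewise undetected in both, and Mmp3 did not pass the test between untreated knockout and wild type (log2 -0.18), a comparison in which 57.7% of genes were called.

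The 15 genes picked for the largest fitted fall included the transcription factors Tfap2b, Irx2 and Shox2 and the growth factor Gdnf. 10 of the 15 were undetected on every vector array, so their falls are lower bounds and have no order. Tfap2b, a transcription factor of neural crest derivatives, read 10.47, 10.71, 10.61, 10.64 and 10.47 in wild type, 4.98, 5.09, 4.84, 4.84 and 4.96 with vector A and 5.41, 5.12, 5.34 and 5.23 with vector B. It was at least 19.1-fold lower (adjusted p = 4.36e-28) and undetected on all 9 vector arrays. Gdnf, the glial cell line-derived neurotrophic factor, read 9.77, 9.56, 9.71, 9.46 and 9.54 in wild type, 4.86, 4.77, 4.63, 4.79 and 4.73 with vector A and 4.95, 4.89, 4.91 and 5.04 with vector B, at least 9.73-fold lower (adjusted p = 7.15e-25). The homeobox factor Irx2 was at least 9.24-fold lower and the homeobox factor Shox2 at least 5.8-fold lower, both undetected with vector.

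Dkk3, a secreted protein of the Dickkopf family, stayed detected. It read 13.39, 13.55, 13.71, 13.54 and 13.63 in wild type, 9.29, 9.39, 9.29, 9.15 and 9.27 with vector A and 7.59, 7.90, 7.63 and 7.82 with vector B. The fall was 33.4-fold (adjusted p = 1.05e-27), deeper with vector B (log2 -1.54 from vector A, adjusted p = 7.04e-15). In untreated knockout cells Dkk3 read 13.08 ± 0.0569 (SD, n = 5). Fbln1, a matrix glycoprotein of the fibulin family, fell 15.2-fold, and nestin (Nes), an intermediate filament protein, fell 10.8-fold. Epb41l3, which links membrane proteins to the cytoskeleton, fell 11.4-fold by its brightest probe, while its other kept probe differed by only -0.39 on the log2 scale. The receptor tyrosine phosphatase Ptprk, undetected on 4 vector arrays, fell at least 12.6-fold. The urea transporter Slc14a1 (at least 7.12-fold), Evi2a (at least 4.57-fold), the teneurin Tenm3 (at least 3.96-fold) and Pcbd1 (at least 5.04-fold) were undetected with vector. Inmt, a methyltransferase, was also undetected with vector (at least 3.92-fold lower), and it was undetected in untreated knockout cells as well.

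**Figure D1:**
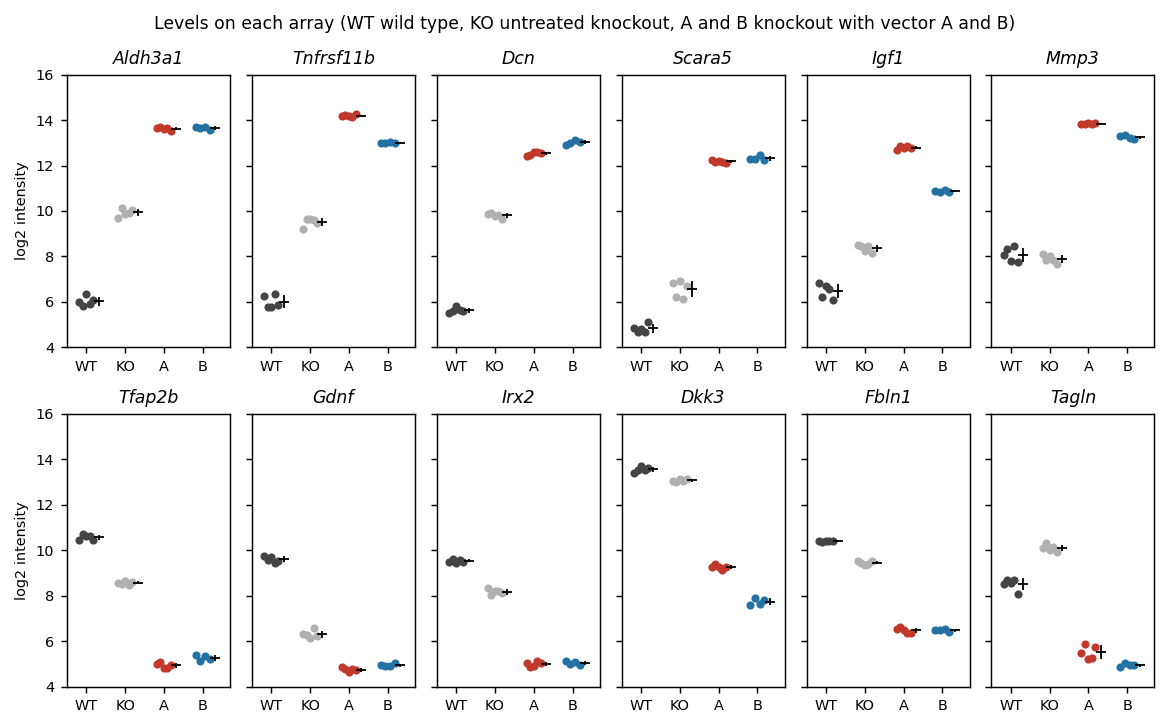
Log2 intensity (vertical axis) of 12 genes on each array of wild-type (WT), untreated knockout (KO), vector A and vector B cells. Points are arrays, and the cross beside them gives the group mean and SD. In the upper row the vector arrays lie far above wild type (Aldh3a1 near 13.6 against 6.03), and in the lower row far below. Tagln is higher in untreated knockout cells than in wild type and undetected with vector.

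Genes of cell division fell almost without exception. Of 29 measured genes of G2 phase and mitosis, all 29 were called lower and 0 higher, with a median of -1.38, against 38.0% lower among all genes. The array holds 39 genes of that list, and the other 10 were under the detection filter. Of the 42 G1/S and DNA replication genes measured, 39 were called lower and 1 higher, with a median of -0.71. The exceptions were Rrm2, a subunit of ribonucleotide reductase, which rose by 0.62 (adjusted p = 2.89e-07), and Pcna and Ccne2, which were not called on the average of the vectors. Pcna, the sliding clamp of the replication fork, differed by 0.21 (adjusted p = 0.263), and Ccne2, a cyclin of the G1/S step, by 0.07 (adjusted p = 0.43). Pcna was called higher with a replicate block (0.25, adjusted p = 0.0412). It was also called higher within the second set of columns, which holds vector B but not vector A (0.58, adjusted p = 0.0028). Ccne2 was lower with vector A alone (-0.27, adjusted p = 0.0152) and higher with vector B alone (0.42, adjusted p = 0.00089), so its average describes neither vector. Rrm2 lies on chromosome 12, whose genes as a whole stood higher.

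Promoters of cell cycle genes are known to carry short elements that time their expression. The 3 stretches below come from mitotic genes that fell and are shown with the cell cycle homology region (CHR), the letters TTTGAA on either strand, in capitals. CHR is bound by the MuvB complexes that time mitotic genes. They are RefSeq promoters of mouse build GRCm38.p6, read from 5′ to 3′ on the gene's strand.
Cdc20, chr4:118437344-118437403, minus strand: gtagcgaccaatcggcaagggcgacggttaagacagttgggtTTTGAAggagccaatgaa
Cdk1, chr10:69352913-69353002, minus strand: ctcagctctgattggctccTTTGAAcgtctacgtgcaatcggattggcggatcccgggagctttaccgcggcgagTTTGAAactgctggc
Ube2c, chr2:164769869-164769928, plus strand: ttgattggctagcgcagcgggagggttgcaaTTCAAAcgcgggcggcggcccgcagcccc

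The next stretches come from genes of the G1/S group that fell and show E2F letters in capitals. The letters searched were TTTGGCGC, TTTCGCGC, TTTCCCGC and TTTGCCGC on both strands. In Mcm6 a pair of matches overlap on opposite strands and are printed as 1 run of capitals.
Mcm6, chr1:128359735-128359830, minus strand: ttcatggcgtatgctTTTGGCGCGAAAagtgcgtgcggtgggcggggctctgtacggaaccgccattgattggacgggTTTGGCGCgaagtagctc
Cdca7, chr2:72476124-72476179, plus strand: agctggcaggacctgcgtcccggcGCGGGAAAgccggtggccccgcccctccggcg

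Promoters reaching from 250 bases before to 50 after the start were matched for 24 of the mitotic and 36 of the G1/S genes. The CHR letters stood in 18 of 24 mitotic promoters (75.0%), against 18.1% of 27025 RefSeq promoters and 11.7% of the 6299 measured genes with a promoter. The E2F letters stood in 10 of 36 G1/S promoters (27.8%), against 2.32% and 4.25%, so most promoters of that list did not hold them. A match of letters is a description of the sequence and does not show that a factor was bound.

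Among the mitotic genes, Cdc20, which activates the anaphase-promoting complex, read 12.99, 13.08, 12.96, 12.94 and 13.13 in wild type. It read 10.43, 10.38, 10.46, 10.52 and 10.42 with vector A and 11.50, 11.41, 11.43 and 11.47 with vector B. All vector arrays lay below all wild-type arrays, a fall of 4.21-fold (adjusted p = 4.02e-22), and vector B lay above vector A by 1.01 (adjusted p = 2.98e-13). The kinesin Kif2c fell 4.14-fold, Aurora kinase A (Aurka) 3.72-fold, and the chromosomal passenger protein Cdca8 6.78-fold. Cdk1, the kinase that starts mitosis, fell 2.61-fold (adjusted p = 2.56e-18). Ube2c, the ubiquitin-conjugating enzyme of the anaphase-promoting complex, was undetected on all vector arrays and at least 1.88-fold lower. Cdk1, Ube2c, Mcm6, Rrm2, Pcna and Ccne2 were named after their values were seen.

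Among the G1/S genes, Mybl2, a partner of MuvB, read 10.14, 10.26, 10.34, 10.28 and 10.14 in wild type, 7.96, 7.69, 7.77, 7.84 and 7.80 with vector A and 8.66, 8.66, 8.89 and 8.62 with vector B. The arrays did not overlap, and the fall was 3.92-fold (adjusted p = 5.08e-19). The nuclear factor Cdca7 fell 2.92-fold, Mcm7, a subunit of the replicative helicase, 2.37-fold, and the flap endonuclease Fen1 2.14-fold. Mcm6, another helicase subunit, read 10.76 ± 0.175 (SD, n = 5) in wild type, 9.97 ± 0.17 (SD, n = 5) in vector A cells and 10.50 ± 0.12 (SD, n = 4) in vector B cells, so its fall of 1.44-fold (adjusted p = 1.18e-06) was larger with vector A, and the arrays overlapped. Within the first and the second set of columns, where the vector side is vector B alone, Mcm6 was not called (adjusted p = 0.0741 and 0.0995). These values are those of its brightest probe, and its other kept probe fell further, by -1.47 on the log2 scale.

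The fall was larger with vector A than with vector B. The median of the mitotic genes was -1.60 with vector A and -1.09 with vector B, and that of the G1/S genes -0.94 and -0.53. Tested directly, vector B was higher than vector A in 27 of 29 mitotic genes and 36 of 42 G1/S genes and lower in 0, where 53.4% of all genes were called between the vectors in either direction. Untreated knockout cells also read lower than wild type in 28 of the 29 mitotic genes (median -0.65). Vector cells read lower than untreated knockout cells in 27 of the 29 (median -0.79). Of all 7675 genes, 2390 were lower in the first of these comparisons and 2669 in the second. The share of cells in each phase at harvest was not measured here.

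**Figure D2:**
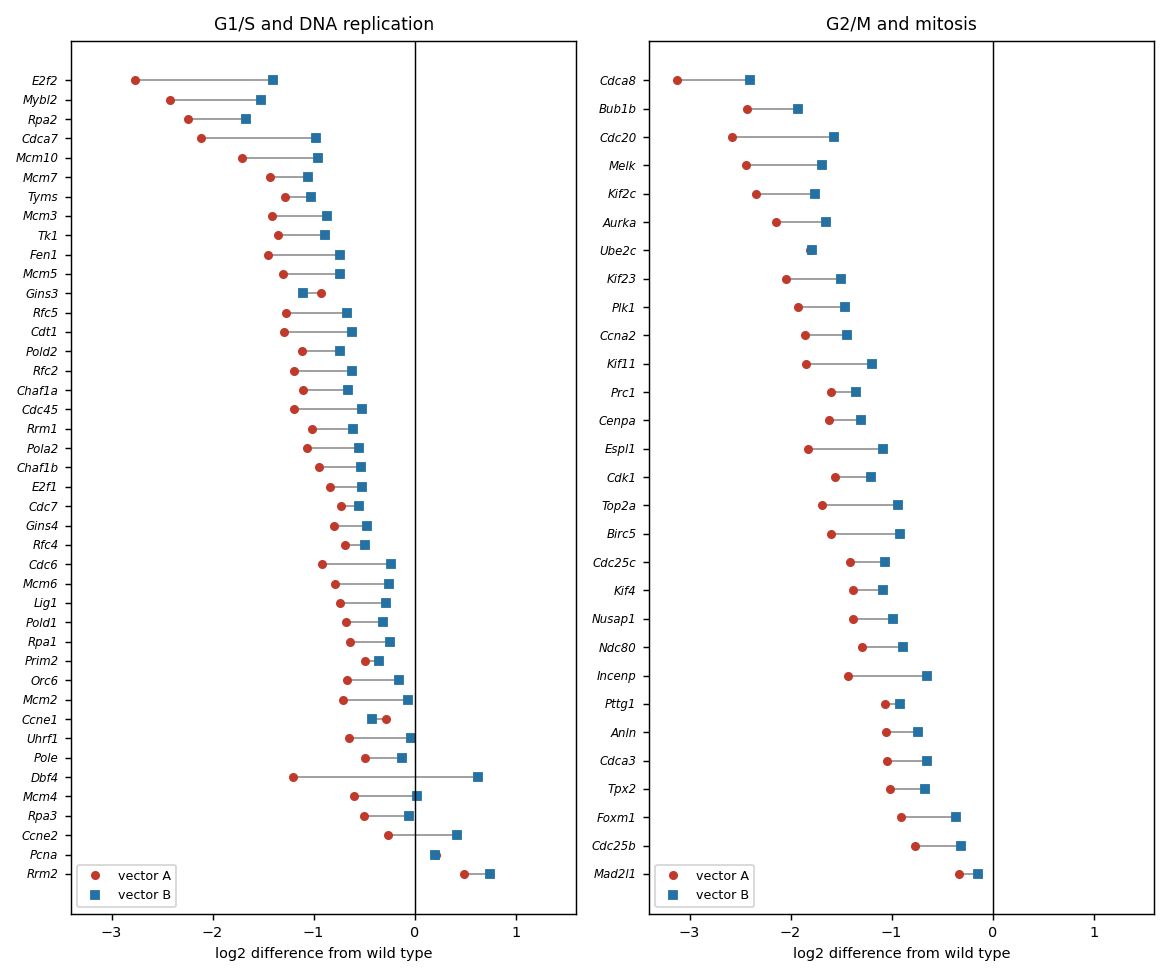
Log2 difference from wild type (horizontal axis) of the 42 measured G1/S genes (left) and the 29 mitotic genes (right), for vector A (circles) and vector B (squares), ordered by their mean. All 29 mitotic genes lie left of 0 with both vectors, and most squares lie to the right of their circles. Both vectors are set against the same 5 wild-type arrays.

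Among cyclin-dependent kinase inhibitors and known p53 targets, more genes were higher than lower. Of 28 measured kinase inhibitors and p53 targets, 16 were higher and 8 lower, with a median of 0.23. Fas, the death receptor, read 7.24, 7.32, 7.48, 6.94 and 7.04 in wild type, 9.60, 9.64, 9.64, 9.49 and 9.69 with vector A and 9.77, 9.87, 9.69 and 9.69 with vector B. It rose 5.58-fold without overlap (adjusted p = 4.1e-19). Gadd45g, a stress-induced growth regulator, rose 3.54-fold, cyclin G1 (Ccng1) 3.27-fold and Mdm2, the ubiquitin ligase of p53, 2.47-fold.

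The kinase inhibitors themselves did not move one way. Cdkn1a, which encodes p21, rose 2.23-fold (adjusted p = 5.47e-16), from 10.76 ± 0.116 (SD, n = 5) in wild type to 11.67 ± 0.0468 (SD, n = 5) in vector A cells and 12.16 ± 0.123 (SD, n = 4) in vector B cells. Cdkn2a, the locus of p16 and p19Arf, read 10.23, 10.38, 10.58, 10.25 and 10.39 in wild type, 8.47, 8.74, 8.61, 8.70 and 8.53 with vector A and 8.03, 8.03, 8.01 and 8.06 with vector B, and fell 4.13-fold (adjusted p = 1.65e-15). Its neighbour Cdkn2b, which encodes p15, fell 2.14-fold (adjusted p = 4.5e-16), while in untreated knockout cells it stood above wild type by 0.74. These 3 inhibitors were named after their values were seen.

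Contractile genes did not move together against wild type. Of 16 measured genes, 3 were higher and 7 lower, with a median of -0.04. Tagln, which encodes the actin-binding protein SM22 alpha, read 8.504, 8.68, 8.57, 8.70 and 8.07 in wild type, 5.48, 5.90, 5.21, 5.26 and 5.76 with vector A and 4.86, 5.02, 4.95 and 4.96 with vector B. It was undetected on all vector arrays, at least 4.53-fold lower (adjusted p = 1.11e-17), whereas untreated knockout cells read 10.11 ± 0.148 (SD, n = 5), above wild type. Mustn1, a small nuclear protein of muscle and bone, followed the same order, with 8.32 ± 0.0916 (SD, n = 5) in wild type, 10.46 ± 0.12 (SD, n = 5) in untreated knockout cells and no detection with vector (at least 4-fold lower than wild type, adjusted p = 3.15e-20). The other kept probe of Mustn1 differed by -0.60 on the log2 scale.

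Smoothelin (Smtn), a marker of contractile smooth muscle, fell 2.02-fold and tropomyosin 2 (Tpm2) 1.9-fold, although the weaker Tpm2 probe differed by only -0.17 on the log2 scale. Acta2, smooth muscle alpha actin, read 14.58, 14.48, 14.61, 14.69 and 14.44 in wild type, 13.89, 13.92, 13.95, 13.85 and 13.92 with vector A and 13.90, 13.91, 13.89 and 13.83 with vector B, a fall of 1.59-fold (adjusted p = 2.44e-12). Another kept probe of Acta2 fell further, by -1.93 on the log2 scale. Set against untreated knockout cells, 13 of the 16 contractile genes were lower with vector and 1 higher (median -0.57). Over all 7675 genes 2669 were lower and 3039 higher in that comparison. Untreated knockout cells were higher than wild type in 13 of the 16 and lower in 0 (median 0.48), against 2038 higher and 2390 lower among all genes. Of 9 smooth muscle markers only Acta2, Tagln and Smtn were detected in wild type. Cnn1, Myh11, Lmod1, Des and Myocd were undetected in all groups, and Actg2 was detected in untreated knockout cells only among these 3 groups. The CArG box, bound by serum response factor, stood in 3 of 14 matched promoters of contractile genes (21.4%), against 1.57% of all promoters. None of the 3 genes fell: Cnn2 differed by -0.02 and Srf by -0.05, which did not pass the test, and Vcl rose by 0.79 on the log2 scale.

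Of the 6 measured fibroblast markers 5 rose and 1 fell, while 3 of the 4 measured smooth muscle markers fell. Of the 5, Col14a1 was detected on vector arrays only and passed the filter through them, so its rise adds no support to the count. The summed intensity of 9 fibroblast markers was between 3125 and 3727 in wild type and between 11406 and 12663 with vector, and that of the 9 smooth muscle markers between 24002 and 28381 in wild type and between 15572 and 16647 with vector. In untreated knockout cells the fibroblast sum was between 30765 and 34420 and the smooth muscle sum between 65335 and 69206. Each sum adds unlogged intensities, so its brightest gene weighs most. The brightest fibroblast marker was Pdgfra in wild type (mean 11.23) and Dcn with vectors A and B (12.53 and 13.02). In untreated knockout cells it was Thy1 (14.81). Among the smooth muscle markers Acta2 was brightest in every group, so the sums say little about the other genes of a list. On any wild-type array 3 fibroblast markers were detected, and on all vector arrays 6. Thy1, a surface glycoprotein, read 9.58, 9.35, 9.51, 9.30 and 9.40 in wild type, 11.49, 11.45, 11.51, 11.62 and 11.53 with vector A and 11.05, 11.14, 11.02 and 11.02 with vector B, 3.63-fold higher (adjusted p = 9.55e-20). Dcn, Dpt and Col14a1 were undetected in wild type and detected on all 9 vector arrays. Pdgfra, the PDGF receptor alpha chain, went the other way and fell 8.12-fold (adjusted p = 3.22e-22). Lum, Pi16 and Fap were undetected with vector.

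Markers of other cells were mostly at background. Of 7 endothelial markers 0 were detected in either group, with a summed intensity between 241 and 272 in wild type and between 250 and 281 with vector. Of 7 leukocyte markers Cd14 was detected on all arrays and Aif1 on 1 vector array, while Ptprc, Adgre1 and Lyz2 were undetected (sums from 482 to 542 in wild type and from 547 to 791 with vector). Of 6 adipocyte markers only Pparg was detected (304 to 329 against 1450 to 2371). The 4 epithelial markers summed to 189 to 214 in wild type and 333 to 424 with vector. The epithelial genes Krt19 and Cdh1 were detected on all 9 vector arrays and on no wild-type array. Krt19 was at least 2-fold higher and Cdh1 at least 1.26-fold. Cdh1 was undetected in untreated knockout cells and in those given PMCA4b, so it passed the filter through the vector arrays alone. Krt8 was detected on 2 wild-type arrays, 0 vector A arrays and 1 vector B array. Its means were 6.33 in wild type, 6.11 with vector A and 6.09 with vector B. Krt18 was undetected. Of 5 chondrocyte and bone markers Sox9 was detected on all arrays and the others on none of these groups. Sox9 read 9.38 in wild type, 8.88 with vector A and 9.115 with vector B. Of 5 skeletal muscle markers only Myog was detected, on 1 wild-type array. The part of the cell mixture in the results given here was not tested.

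Matrix genes rose more often than they fell. Of 26 measured collagens and collagen-processing genes, 17 were higher and 9 lower, with a median of 0.75. Of 31 proteoglycans and elastic or matricellular genes, 20 were higher and 8 lower (median 0.64). Prelp, a proteoglycan that ties basement membranes to connective tissue, read 7.33, 7.33, 7.19, 7.22 and 7.07 in wild type, 11.87, 11.94, 11.79, 11.81 and 11.83 with vector A and 12.36, 12.45, 12.40 and 12.47 with vector B. It rose 30-fold without overlap (adjusted p = 5.76e-25). Col14a1, which binds fibrils in tissue under stress, rose at least 3.17-fold, but it passed the filter through the vector arrays alone. Its rise thus adds no support to the count of collagens. Col7a1, the collagen of anchoring fibrils, rose at least 4.71-fold. Col4a1, a chain of the basement membrane network, rose 2.12-fold, and Pcolce2, which enhances procollagen trimming, rose 5.19-fold.

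Serpinf1, also called PEDF, which restrains vessel growth, was detected on 1 wild-type array and rose at least 6.06-fold, to 9.40 ± 0.102 (SD, n = 5) in vector A cells and 8.62 ± 0.0749 (SD, n = 4) in vector B cells. Untreated knockout cells read far higher still at 12.67 ± 0.0868 (SD, n = 5), and vector cells were lower than those (log2 -3.66, adjusted p = 2.92e-18). Among 25 matrix proteases and inhibitors, 13 were higher and 8 lower (median 0.16). The collagenase Mmp13 was undetected in wild type and rose at least 3.27-fold by its brightest probe, while its other kept probe differed by 0.09 on the log2 scale. Timp3, an inhibitor bound to matrix, rose 2.83-fold.

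The insulin-like growth factor axis held some of the largest rises, with 9 of 14 genes higher, 4 lower and a median of 1.08. Besides Igf1 and Igfbp5, the carrier Igfbp3 was undetected in wild type at 5.99, 5.95, 6.13, 6.11 and 6.12 and read 11.81, 11.70, 11.88, 11.91 and 11.82 with vector A and 10.07, 10.01, 10.07 and 10.14 with vector B. It rose at least 23.3-fold (adjusted p = 2.35e-20), and vector B was below vector A (log2 -1.75, adjusted p = 2.26e-09). Igfbp4 rose 8.97-fold. Untreated knockout cells had the same median for this list against wild type, 1.08, with 8 genes higher and 3 lower. Of all 7675 genes 2038 were higher and 2390 lower there.

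Chemokines and NF-kB targets were higher in 18 and lower in 7 of 28 genes, with a median of 0.53. Cxcl1, which attracts neutrophils, was detected on 4 wild-type arrays and read 6.67, 6.89, 6.34, 7.01 and 6.53. It read 10.63, 10.84, 10.85, 11.02 and 10.80 with vector A and 12.12, 12.16, 12.14 and 12.14 with vector B. The rise was at least 27.5-fold (adjusted p = 9.17e-21) and larger with vector B by 1.31 (adjusted p = 7.75e-08), while untreated knockout cells did not pass the test against wild type (log2 -0.19, adjusted p = 0.234). Its promoter is shown with the NF-kB motif in capitals, a factor known to drive chemokine genes. The motif stood in 7 of 21 matched promoters of this list (33.3%), against 1.56% of all RefSeq promoters and 1.67% of measured genes. Of those 7 genes, Cxcl1, Ccl9, Tnfaip3 and Nfkb2 were called higher, and Csf1, Nfkbia and Tlr2 were called lower.
Cxcl1, chr5:90891150-90891205, plus strand: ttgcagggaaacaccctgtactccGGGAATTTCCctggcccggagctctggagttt

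Other members rose as well. The chemokine Ccl9 read 7.35, 7.24, 7.22, 7.21 and 7.23 in wild type, 10.68, 10.55, 10.80, 10.68 and 10.66 with vector A and 11.23, 11.21, 11.39 and 11.39 with vector B, 13.3-fold higher without overlap (adjusted p = 3.04e-24). Lcn2, an iron-sequestering lipocalin, was undetected in wild type and in untreated knockout cells and rose at least 2.63-fold. It was detected on vector arrays only and passed the filter through them, so its rise adds no support to the count. The adhesion molecule Vcam1 rose 4.4-fold. Against this direction, the receptor Tlr2 was undetected with vector and at least 2.1-fold lower (adjusted p = 3.97e-19), and the growth factor Csf1 fell 3.19-fold (adjusted p = 4.27e-13). Tlr2 and Csf1 were named after their values were seen. Of 10 measured genes of the complement list, 9 were higher and 1 lower (median 1.06). The array holds 26 genes of that list, and the others were under the detection filter. Among the 9 was Cd55, which shields cells from complement and was undetected in wild type (at least 1.53-fold higher). Also among them were C1qtnf2 and Cd47 (log2 1.33 and 0.80), which the list takes in although neither is a complement factor.

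Interferon response genes fell more often than they rose, in 16 against 6 of 28, with a median of -0.31. Igtp, an interferon-induced GTPase, read 7.58, 7.43, 7.70, 7.74 and 7.76 in wild type, 6.24, 6.33, 6.44, 6.05 and 6.46 with vector A and 5.53, 5.36, 5.33 and 5.46 with vector B. Its fall was at least 2.45-fold (adjusted p = 1.73e-15), with detection on 2 vector arrays. The guanylate-binding proteins Gbp2 and Gbp3 fell 1.94-fold and at least 1.9-fold, and the ubiquitin-like Isg15, named after its value was seen, fell at least 4.95-fold. Ifit3 was among the 6 genes that were higher and rose 4.74-fold by its brightest probe (adjusted p = 3.34e-18). It read 11.43 ± 0.0949 (SD, n = 5) in vector A cells and 9.71 ± 0.11 (SD, n = 4) in vector B cells. Its weakest kept probe read a rise of 1.09 on the log2 scale. The list differed between vectors, with a median of 0.01 for vector A and -0.43 for vector B against wild type, and vector B was lower than vector A in 17 genes and higher in 4. Untreated knockout cells were lower than wild type in 19 and higher in 4 (median -0.56). Of all 7675 genes, vector B was lower than vector A in 1957 and higher in 2142. Untreated knockout cells were lower than wild type in 2390 of all genes and higher in 2038. Of 13 genes of MHC class I presentation 7 were higher and 5 lower with vector than in wild type.

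Cholesterol synthesis rose almost throughout. Of 19 measured genes, 18 were higher and 0 lower, with a median of 0.93. Cyp51, the lanosterol demethylase, read 10.42, 10.44, 10.48, 10.42 and 10.37 in wild type, 11.68, 11.56, 11.71, 11.60 and 11.66 with vector A and 13.48, 13.40, 13.25 and 13.44 with vector B. The arrays did not overlap, the rise was 4.26-fold (adjusted p = 1.33e-21), and vector B lay above vector A by 1.75 (adjusted p = 3.71e-17). Hmgcs1, which makes the precursor of mevalonate, rose 2.39-fold, Msmo1 2.6-fold and Hsd17b7 2.66-fold, the last 2 being enzymes of the sterol steps. In untreated knockout cells 12 of the 19 were higher than wild type and 0 lower (median 0.21). Of all 7675 genes 2038 were higher and 2390 lower there. The letters TCACNCCAC of the sterol response element stood in 1 of 16 promoters (6.25%), against 1.22% of all promoters.

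Genes of lipid storage and of fatty acid oxidation were also higher more often than lower. Pparg, the nuclear receptor of fat cell formation, read 7.02, 6.99, 7.003, 6.92 and 7.06 in wild type, 10.92, 11, 11.09, 11.10 and 10.99 with vector A and 10.41, 10.32, 10.30 and 10.37 with vector B. It rose 12.9-fold (adjusted p = 3.65e-23) without overlap, and its lower probe read a rise of 1.76 on the log2 scale. Lpl, lipoprotein lipase, read 7.57, 7.35, 7.57, 7.40 and 7.40 in wild type, 11.24, 11.28, 11.16, 11.13 and 11.17 with vector A and 12.41, 12.30, 12.46 and 12.37 with vector B, 20.2-fold higher (adjusted p = 3.1e-22). Acss2, which makes acetyl-CoA from acetate, rose 6.18-fold, the lipid droplet protein Plin4 4.11-fold and the lipase inhibitor Angptl4 2.59-fold. Over the list of fatty acid synthesis and storage 13 of 25 genes were higher and 7 lower (median 0.44), and over fatty acid oxidation 12 of 20 were higher and 3 lower (median 0.41). Acot1, an acyl-CoA thioesterase, was undetected in wild type and rose at least 14.3-fold (log2 1.31 by its other probe), and Decr1, an enzyme for unsaturated fatty acids, rose 2.34-fold. The fat cell markers Adipoq, Plin1, Fabp4 and Cidec were undetected on all arrays of both groups.

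Detoxification and lysosomal genes were mostly higher. Of 44 antioxidant and detoxification genes, 30 were higher and 11 lower, with a median of 0.51. Selenop, a secreted selenium carrier, read 7.09, 7.11, 7.62, 7.31 and 7.21 in wild type, 12.86, 12.71, 12.63, 12.88 and 12.84 with vector A and 11.79, 11.67, 11.92 and 11.91 with vector B. It rose 32.8-fold without overlap (adjusted p = 1.67e-24), and Gpx7, a peroxidase of the endoplasmic reticulum, rose 6.49-fold. Of 39 lysosome and autophagy genes, 27 were higher and 6 lower (median 0.46). Cathepsin H (Ctsh) rose 2.66-fold and the sialidase Neu1 2.5-fold, whereas progranulin (Grn) fell 1.76-fold. Vector B was lower than vector A in 22 of the 39 lysosomal genes and higher in 0. Of all 7675 genes it was lower in 1957 and higher in 2142.

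Receptors and early genes of the growth response moved both ways. Of 36 growth factors and receptors, 18 were higher and 13 lower (median 0.26). Egfr, the receptor of epidermal growth factor, read 8.22, 8.22, 8.39, 8.09 and 8.41 in wild type, 11.86, 11.77, 11.69, 11.81 and 11.68 with vector A and 11.23, 11.15, 11.31 and 11.22 with vector B. It rose 9.36-fold without overlap (adjusted p = 1.23e-23). Gas6, a ligand of the Axl receptor family, rose 9.44-fold, while Pdgfra, a receptor for the growth factor in the medium, fell as given above.

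Of 31 immediate early and MAP kinase feedback genes, 17 were higher and 10 lower (median 0.34). Fos, a subunit of AP-1, was undetected in wild type at 6.07, 6.17, 5.83, 6.08 and 6.06 and read 9.60, 9.67, 9.70, 9.49 and 9.58 with vector A and 9.39, 9.52, 9.53 and 9.37 with vector B. It rose at least 8.7-fold (adjusted p = 4.08e-22), and it was undetected in untreated knockout cells at 6.01 ± 0.127 (SD, n = 5). Fos was detected on vector arrays only and passed the filter through them, so its rise adds no support to the count. Ier3, an early response gene, rose 4.07-fold and the phosphatase Dusp1 2.77-fold, whereas Errfi1, an inhibitor of Egfr, fell 3.5-fold (adjusted p = 1.55e-22).

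Of 19 measured calcium pumps, channels and exchangers, Atp2b1 and Atp2b4 included, 10 were higher and 5 lower (median 0.42). Atp2a3, the SERCA3 pump that fills the endoplasmic reticulum, was undetected in wild type at 4.995, 5.03, 4.88, 5.04 and 4.87 and read 8.61, 8.33, 8.49, 8.53 and 8.37 with vector A and 8.02, 7.75, 7.75 and 7.66 with vector B. It rose at least 3.3-fold (adjusted p = 1.48e-19). Itpr2, a channel that releases calcium from the reticulum, rose 2.68-fold, and P2rx4, a calcium-permeable channel opened by ATP, rose 2.27-fold. Of 27 calmodulin, calcineurin and NFAT genes, 10 were higher and 10 lower (median -0.07). Rcan2, an inhibitor of calcineurin, read 11.74, 11.86, 11.73, 11.63 and 11.84 in wild type, 9.61, 9.72, 9.66, 9.64 and 9.74 with vector A and 8.06, 7.72, 7.90 and 7.98 with vector B, and fell 7.81-fold (adjusted p = 4.83e-20). Of 6 RGS genes, which switch off G protein signals, 1 was higher and 3 lower, and Rgs17, found on 3 vector arrays, fell at least 5.91-fold.

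The remaining lists held genes that moved in both directions. For the unfolded protein and integrated stress response 18 of 38 genes were higher and 13 lower (median 0.07), with asparagine synthetase (Asns) up 2.7-fold (log2 0.39 by its lowest probe), the VLDL receptor (Vldlr) up 10.3-fold and Phgdh, the first enzyme of serine synthesis, down 3.25-fold. For glycolysis and hypoxia 12 of 28 were higher and 10 lower (median 0.08), and for heat shock proteins and chaperones 6 of 25 were higher and 8 lower (median 0.04). Of 49 cytosolic ribosomal proteins 12 were higher and 17 lower (median 0.01), and of 28 integrins and adhesion genes 17 were higher and 7 lower (median 0.35). Of 8 Hox genes 3 were higher and 3 lower, and Hoxa7 was undetected in wild type and rose at least 6.34-fold.

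**Figure D3:**
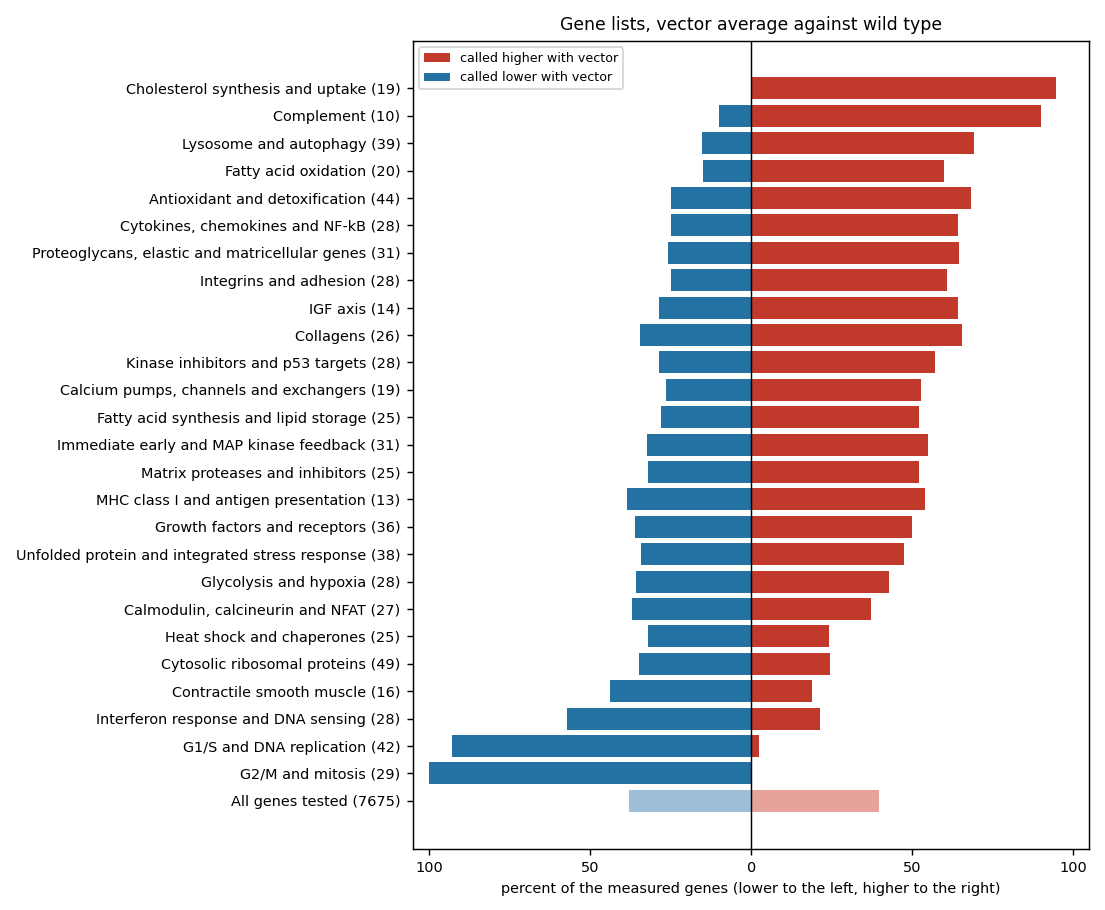
Percent of the measured genes of each list (number in parentheses) called higher with vector than in wild type (to the right) or lower (to the left), with all 7675 tested genes in pale bars at the bottom. Cholesterol synthesis has 18 of 19 genes to the right and the mitotic list 29 of 29 to the left, where all genes stand at 39.6% and 38.0%.

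Some genes lay on opposite sides of wild type in vector and in untreated knockout cells, although both lack PMCA4 by their labels. Mgst1, a membrane-bound glutathione transferase, read 9.54, 9.53, 9.68, 9.66 and 9.50 in wild type, 8.39, 8.40, 8.21, 8.27 and 8.25 in untreated knockout cells, 12.58, 12.57, 12.70, 12.70 and 12.64 with vector A and 12.60, 12.55, 12.52 and 12.68 with vector B. It was 8.17-fold higher with vector and lower in untreated knockout cells (log2 -1.28, adjusted p = 1.21e-24 and 1.1e-15). The 3 groups did not overlap. Clu, a secreted chaperone, followed this order, with 8.76 ± 0.144 (SD, n = 5) in wild type, 7.03 ± 0.123 (SD, n = 5) in untreated knockout cells, and 10.45 ± 0.0756 (SD, n = 5) and 10.03 ± 0.0303 (SD, n = 4) with vectors A and B. So did Cxadr, an adhesion protein of cell junctions, Tmem176b, the glutathione transferase Gsta4 and Wfdc3, whose vector differences from wild type were 2.97, 1.65, 1.46 and 1.84.

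In the reverse order, Fgf10, a growth factor that signals from mesenchyme to epithelium, read 9.03, 9.002, 8.98, 9.06 and 8.71 in wild type, 10.83, 10.86, 10.69, 10.80 and 10.88 in untreated knockout cells, 5.70, 5.996, 5.89, 5.63 and 5.71 with vector A and 5.41, 6.01, 5.57 and 5.44 with vector B. It was undetected on all vector arrays and at least 6.2-fold lower than wild type (adjusted p = 9.64e-20), and higher by 1.86 in untreated knockout cells (adjusted p = 2.35e-13). Wnt10a, a Wnt ligand, was also undetected with vector (at least 2.96-fold lower). Cited2, which binds the coactivators CBP and p300, fell 2.56-fold, and Lce1f was detected on 3 wild-type and no vector arrays. Tagln and Mustn1, given above, belong here. These genes were picked for opposed differences, so the opposition is a description.

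The vector groups differed from each other in 4099 genes (53.4%), 2142 higher and 1957 lower with vector B, and 145 and 93 of these by at least 2-fold. With the set of columns as a block the count was 3148. Vector A lies in 1 set and vector B in the other sets, so the vectors meet only through the groups spread over all sets. Of the 1290 genes at least 2-fold apart from wild type, 865 (67.1%) were also called between the vectors.

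Tril, a partner of Toll-like receptors, read 5.22, 4.87, 4.92, 4.90 and 5.39 in wild type, 5.71, 5.55, 5.80, 5.47 and 5.80 with vector A and 9.63, 9.92, 9.86 and 9.77 with vector B. It was detected on the vector B arrays and on no wild-type, untreated knockout or vector A array, so vector B lay at least 10.8-fold above vector A (adjusted p = 6.59e-20). Plvap, a protein of endothelial pores, read 6.84, 6.85, 6.996, 6.75 and 6.76 in wild type, 5.88, 5.71, 5.97, 5.63 and 5.65 with vector A and 9.02, 9.04, 9.19 and 8.92 with vector B, so vector A lay below and vector B above wild type. Vector A arrays gave no detection of Plvap, and vector B lay at least 6.45-fold above them. Egfl7, a factor secreted by endothelium, did the same (at least 6.06-fold), with 7.998 ± 0.139 (SD, n = 5) in wild type, 5.87 ± 0.282 (SD, n = 5) in vector A cells and 8.95 ± 0.0792 (SD, n = 4) in vector B cells. For both genes the mean of the vectors describes neither vector, and with the 9 vector arrays pooled as 1 group neither was called against wild type (adjusted p = 0.55 and 0.21).

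The transcription factor Tshz3 and the glypican Gpc1 were near the untreated knockout level with vector B and far lower with vector A. Gpc1 read 13.08 ± 0.1 (SD, n = 5) in wild type, 12.33 ± 0.044 (SD, n = 5) in untreated knockout cells, 9.50 ± 0.113 (SD, n = 5) in vector A cells and 12.34 ± 0.0789 (SD, n = 4) in vector B cells. Higher with vector A were Dlk1, a Notch-related inhibitor of fat cell formation, Esm1, a secreted proteoglycan, the LIM-domain factor Lmo2, the microfibril protein Mfap5 and podoplanin (Pdpn). Dlk1 read 9.27, 9.36, 9.40, 9.50 and 9.35 with vector A, against 6.17, 6.02, 5.99 and 6.18 with vector B and 5.34, 5.18, 5.40, 5.18 and 5.25 in wild type, and was detected in vector A only among these. Lmo2 was undetected in wild type and read 10.80, 10.77, 10.88, 10.76 and 10.70 with vector A and 8.47, 8.37, 8.41 and 8.60 with vector B. Lmo2 was detected on vector arrays only and passed the filter through them. Pdpn was undetected both in wild type and with vector B. Untreated knockout cells read 10.12 ± 0.0459 (SD, n = 5) for Pdpn and 11.22 ± 0.066 (SD, n = 5) for Mfap5. Both lay above the vector A means of 7.56 and 10.04. Esm1 and Dlk1 read 12.05 ± 0.204 and 7.45 ± 0.0761 (SD, n = 5) in untreated knockout cells, below vector A, and Lmo2 was undetected there. Vector B lay above vector A by 2.84 on the log2 scale for Gpc1 and, since Tshz3 was undetected with vector A, at least 6.71-fold for Tshz3. Its differences from vector A were -2.52 for Esm1, -2.32 for Lmo2 and -2.26 for Mfap5. Dlk1 and Pdpn, undetected with vector B, were at least 8.47-fold and 2.4-fold lower there.

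**Figure D4:**
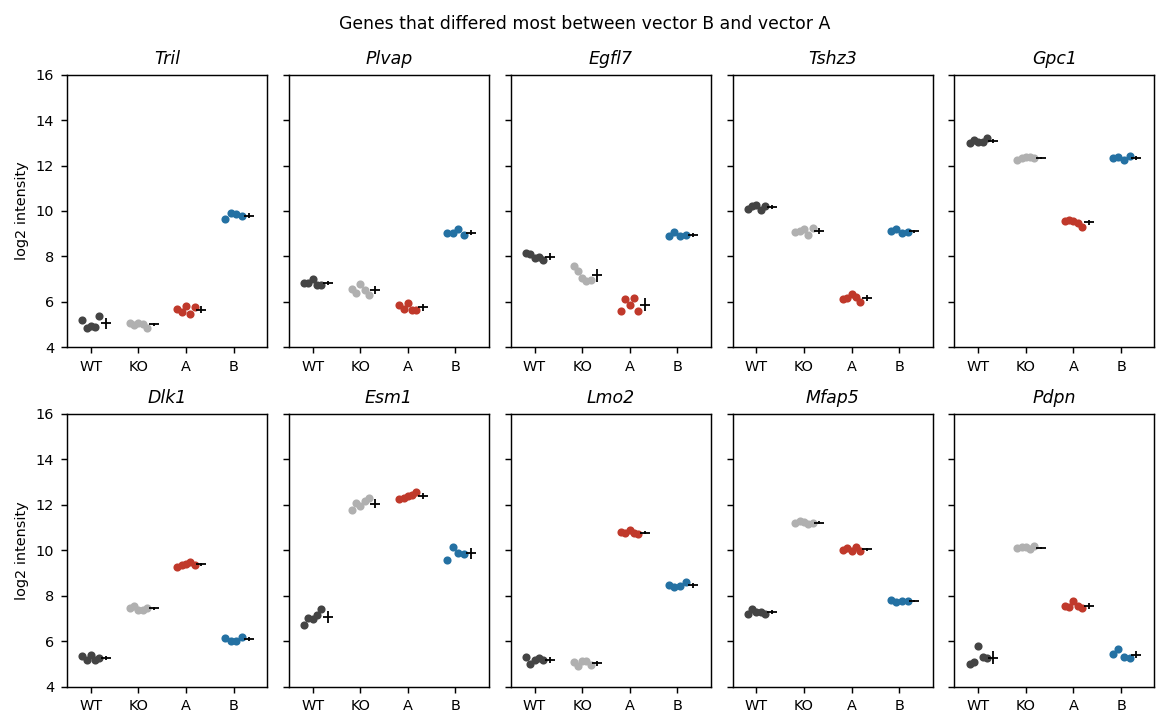
Log2 intensity (vertical axis) of the 10 genes with the largest fitted and called differences between vector B and vector A, on each array of wild-type (WT), untreated knockout (KO), vector A (A) and vector B (B) cells. Points are arrays, and the cross gives the mean and SD. Tril stands near 9.8 with vector B and near 5.7 with vector A. Plvap and Egfl7 lie below wild type with vector A and above it with vector B.

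Genes of chromosomes 3 and 12 shifted as a whole. Over 371 measured genes of chromosome 3 the median difference of vector from wild type was -0.54, with 254 called lower and 60 higher. Over 246 genes of chromosome 12 it was 0.46, with 174 called higher and 32 lower. On the other 18 chromosomes the medians lay between -0.21 (chromosome 4) and 0.16. The shift was the same in kind on every vector array: the median of chromosome 3 lay between -0.78 and -0.73 on the vector A arrays and between -0.39 and -0.32 on the vector B arrays, and that of chromosome 12 between 0.50 and 0.52 and between 0.37 and 0.44.

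The median of chromosome 3 was -0.75 with vector A, -0.34 with vector B and -0.13 in untreated knockout cells. The median of chromosome 12 was 0.50 with vector A, 0.43 with vector B and 0.36 in untreated knockout cells. In knockout cells given PMCA4b the medians against wild type were -0.34 for chromosome 3 and 0.12 for chromosome 12. When each chromosome was cut into 3 equal parts by gene order, the vector A medians of chromosome 3 were -0.70, -0.72 and -0.89, and those of chromosome 12 were 0.51, 0.67 and 0.40, so the shift ran along the whole chromosome. Without the genes of chromosomes 3 and 12, 2809 of 7058 genes were higher and 2634 lower. Without them 28 mitotic genes were lower and 0 higher, 39 G1/S genes were lower and 0 higher, and 17 chemokine and NF-kB genes were higher and 3 lower in place of 18 and 7. Where undetected genes were kept in, the medians were -0.08 and 0.07. DNA copy number was not measured here.

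**Figure D5:**
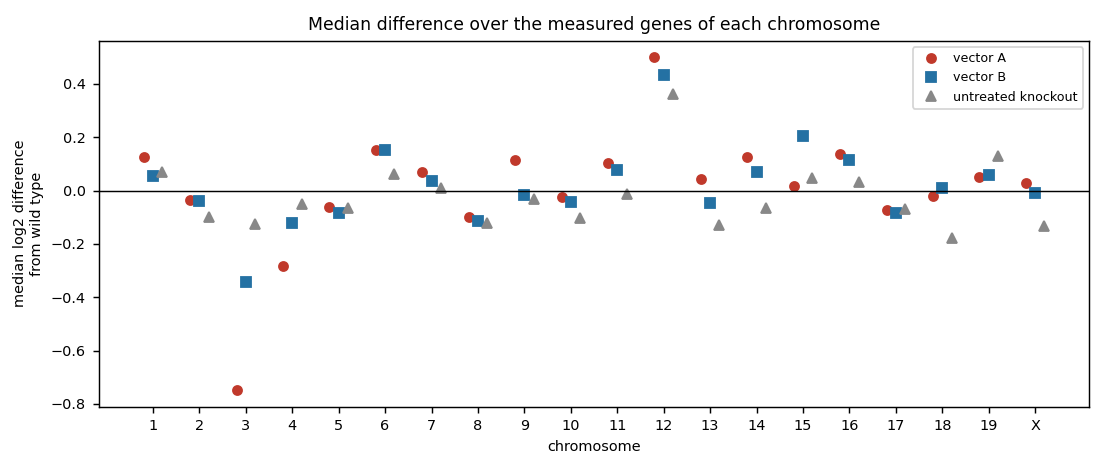
Median log2 difference from wild type (vertical axis) over the measured genes of each chromosome, for vector A (circles), vector B (squares) and untreated knockout cells (triangles), all against the same 5 wild-type arrays. Chromosome 3 is lowest with both vectors (-0.75 and -0.34), and chromosome 12 is highest in all 3 groups (0.50, 0.43 and 0.36).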

How the data were processed

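RNA was isolated with a PicoPure kit and labelled with biotin, per the labels' protocols, and hybridized to Illumina bead arrays. The deposited table gives each probe a background-subtracted intensity on each array, without normalization between arrays, and the authors deposited detection p-values beside it. A second deposited table holds the authors' log2 values, which share the same quantiles on every array and served as an alternative. The sources used here do not name the software behind these steps.

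Intensities were background-corrected and quantile-normalized by limma's neqc (limma 3.58.1, R 4.3.3, data.table version 1.17.8), with an offset of 16. A probe was kept if its detection p was under 0.01 on 4 or more of the 24 arrays (11139 of 25697). A gene detected in the vector groups only was thus kept through them. The platform annotation names a single gene for 23978 probes. Among the kept probes 10504 were named, and the brightest stood for its gene (7675 genes, 2039 with several kept probes, 157 of them with called probes in opposite directions). Of the 50 named genes with several kept probes, 3 had probes of opposite sign, and in 26 the weakest probe showed a change smaller by over 1.5-fold. A mean per group was fitted to all 24 arrays (19 residual degrees of freedom). The vector average against wild type, vector B against vector A and both contrasts with untreated knockout cells were tested with limma's moderated test, with Benjamini-Hochberg adjustment over all genes and a threshold of 0.05. The method was tested on simulated data.

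For an undetected side the fold is a lower bound: on each dim array the lowest detected value (6.17 to 6.57) replaced the probe's own value where that was lower. The groups, the 1177 listed genes (1051 on the array) and the naming rule were chosen with earlier results of these data known. The rule names Atp2b1 and Atp2b4, the 15 largest called differences in each direction without overlap, the 5 largest between vectors in each direction, the 6 in each direction most opposed to untreated knockout cells and up to 4 genes per list by adjusted p. Genes without a regular symbol were passed over, and some genes it names are left out. Promoters were read from RefSeq tables of GRCm38.p6, 1 start per gene. Alternatives covered the background correction, offset, scaling, filter, probe choice, arrays in the fit, each vector alone, the set of columns, the replicate number and leaving out each array.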

Additional observations from a re-analysis of the deposited data

Results flagged for a closer look

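In 402 groups of arrays (3 groups for each of 134 named genes) 12 held an array far from the rest by Dixon's test (2.99%), where chance gives about 1 in 20. The low arrays were vector A replicate 4 for Atp2b4 (6.41) and Pcbd1 (5.04), vector A replicate 1 for Cdkn1a (11.59) and vector A replicate 3 for Tlr2 (4.90). In wild type they were replicate 5 for Fgf10 (8.71), replicate 4 for Mustn1 (8.16) and Itpr2 (8.61), and replicate 3 for Gadd45g (10.87) and Gbp2 (8.75). The high arrays were vector B replicate 1 for Evi2a (4.88), vector B replicate 3 for Mybl2 (8.90) and wild type replicate 1 for Ccl9 (7.35).

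The effects of vector A and vector B against wild type differed in 4099 genes by a direct test. The largest fitted log2 differences of vector B from vector A were 4.13 for Tril, 3.28 for Plvap, 3.08 for Egfl7, 2.94 for Tshz3 and 2.84 for Gpc1, and -3.29 for Dlk1, -2.52 for Esm1, -2.32 for Lmo2, -2.26 for Mfap5 and -2.15 for Pdpn. Tril, Plvap, Egfl7 and Tshz3 were undetected with vector A and Dlk1 and Pdpn with vector B, so their true differences have only the lower bounds given in the text (10.8, 6.45, 6.06, 6.71, 8.47 and 2.4-fold). With the set of columns as a block all 10 were still called in the same direction.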

How the results depend on the processing

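The precision rests on 4 or 5 arrays a group, and undetected probes give only bounds. Within a single set of columns the vector side is not the average. It is vector B alone in the first and second sets and vector A alone in the third. The count of 5963 genes between vector and wild type ran from 4425 to 6534 over 16 other settings (4425, 4529 and 4996 within single sets of columns, 6534 without the detection filter) and from 5815 to 5927 when each array was left out. Between the vectors it ran from 3148 (set as a block) to 4270, and from 3757 to 4115 with an array left out. Against untreated knockout cells leaving out an array gave 5635 to 5730 genes. Between untreated knockout cells and wild type it gave 4230 to 4423, and the count fell from 4428 to 2743, 2790 and 2216 within single sets, which hold fewer arrays. With a replicate block the counts were 6058 for vector against wild type, 4096 between the vectors, 5813 against untreated knockout cells and 4526 between those and wild type. The correlations of same-numbered arrays ran from -0.03 to 0.05 between wild type and vector, from 0.01 to 0.42 between wild type and untreated knockout cells and from -0.01 to 0.10 between those and vector. In no comparison did every pair pass 0.1, so the numbers were not taken to pair the arrays.

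The median of chromosome 3 was -0.614 without background correction, -0.503 with an offset of 50, -0.0755 without the detection filter, -0.608 with genes detected on every array of a group, -0.748 with vector A alone, -0.342 with vector B alone, and -0.36, -0.371 and -0.763 within the sets. That of chromosome 12 was 0.494, 0.417 and 0.07 under the first 3 of these, 0.415 in the authors' log2 values, 0.499 with vector A alone, and 0.402, 0.42 and 0.523 within the sets. Leaving out an array gave -0.556 to -0.534 and 0.453 to 0.471. The chromosome settings were added after seeing the data. Leaving out the detection filter adds undetected genes, and within a set the vector side is vector A alone or vector B alone. Causes of the shifts between settings were not tested.

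Atp2b4 turned to 0.058 with the set as a block and to 0.13 within the first and the third set, and passed the test at -0.42 within the second (adjusted p = 0.0306). With an array left out Atp2b4 ran from -0.17 to -0.03, and Atp2b1 from 1.53 to 1.58. Of the 134 named genes, 126 kept direction and call under all 16 other settings, and all 134 when an array was left out. Plvap turned to -1.07 with vector A alone and to -0.99 within the third set. Egfl7 turned to 0.96 with vector B alone and to 0.85 and 0.97 within the first and second sets. Pdpn turned to -0.24 within the second set, Pcna to -0.22 within the third, and Ccne2 to -0.27 with vector A alone, where it was called, and to -0.24 within the third. Calls were gained for Pcna with the replicate block (0.25) and within the second set (0.58), and for Ccne2 with vector B alone (0.42) and within the first and second sets (0.40 and 0.42). Calls were lost for Tril within the third set (0.27) and for Pdpn with vector B alone (0.13, adjusted p = 0.389). They were also lost for Plvap and Egfl7 with the 9 vector arrays pooled and for Mcm6 within the first and second sets. Values within the first and second sets are those of vector B alone, and values within the third those of vector A alone. Further causes were not tested.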
